A study of Mus musculus with 18 samples.

Results

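Tail tendon fibroblasts (TFs) of mice that lost *Hif1a* through Cre in the tendon lineage were compared with Ctrl TFs that received Cre in the dish, both grown in 20% O2. The 6 libraries, of 18 in the series, were chosen by their titles as cKO (n = 3) and as gesicle-treated Ctrl (n = 3), and autosomal genes were compared. The cKO mice carried Scleraxis-Cre and Hif1a fl/fl alleles, so that Cre followed the promoter of the tendon transcription factor Scleraxis from development onwards and was not confined to tendon. The gesicle-treated cells were Ctrl TFs, labelled wild-type, to which Cre gesicles, cell-derived vesicles that carry the recombinase, were given in culture to induce knockdown by a parallel route. The study's methods describe Ctrl mice as Cre-negative with Hif1a fl/fl or as Hif1a fl/WT with Scleraxis-Cre, and the cultured Ctrl TFs as Cre-negative, so the labels and the methods differ on whether these cells carried the floxed allele. Untreated Ctrl TFs in 20% O2 (n = 3, Cre-negative) are given beside them. All cells came from tail tendons of adult mice of both sexes, were passaged on plastic and were held for 4 days in 20% O2 before poly-A RNA was sequenced. No gesicle without Cre was among the labelled groups, so the vesicle and its Cre cannot be told apart.

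Library totals ran from 26967440 to 42964226 counts in the cKO group and from 44011967 to 51806453 in the gesicle-treated group. By *Xist* and Y-linked counts, 1 of 3 cKO and 2 of 3 gesicle-treated libraries came from females. The cKO library of replicate 2 stood apart in its mitochondrial share, at 1.02% of counts against 0.346 to 0.58% in the other 5, and in lower collagen counts. Markers of fibroblasts were abundant throughout, with a summed level of 17220 to 25000 CPM (counts scaled to a common library total), and *Scx*, which encodes Scleraxis, measured 8.21 to 21.5 CPM. The 11 macrophage markers summed to 20.8 to 38.7 CPM in cKO and 21.7 to 34.3 CPM in gesicle-treated TFs. Most of this was *Lyz2* (8.57 to 21.9 CPM) and *Cd14* (7.99 to 13.7 CPM), while *Ptprc*, *Adgre1*, *C1qa*, *C1qb* and *Tyrobp* did not exceed 0.226 CPM in any of the 6 libraries. Of the 6, only gesicle-treated replicate 2 had counts of *Adgre1*, *C1qa*, *C1qb* and *Tyrobp*, at 0.136, 0.136, 0.226 and 0.204 CPM. Their part in the result was not tested.

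*Hif1a*, the oxygen-regulated subunit of hypoxia-inducible factor 1 and the floxed gene of the cKO mice, was no lower in cKO TFs at the level of the whole gene. It measured 405.5, 294 and 431 CPM in the cKO libraries, 347, 341 and 398 CPM in the gesicle-treated libraries and 335, 340 and 371 CPM in untreated Ctrl. The groups overlapped, and the log2 fold change of cKO over gesicle-treated TFs was 0.06 ± 0.14 (SE, edgeR adjusted p = 0.882). These counts cover the whole gene, floxed exon included, and so do not measure recombination. By qPCR after a longer culture, the study reported lower *Hif1a* expression in cKO tail TFs. Reads assigned to the cre sequence numbered 1, 5 and 4 in the cKO libraries and 0 in each gesicle-treated and untreated library in 20% O2.

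Type I interferon signals through a receptor that activates a transcription factor complex, which binds a response element in front of a large set of antiviral genes. These genes encode sensors of foreign RNA, enzymes that degrade or block viral RNA, and the machinery that loads peptides on MHC class I molecules. Fibroblasts are known to express them at a low level at rest and to raise them when nucleic acids are sensed.

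Among genes that passed the test, those lower in cKO far outnumbered those higher in cKO. The interferon-stimulated and MHC class I lists had the most members among the lower genes. Of 15573 autosomal genes tested, 81 (0.520%) differed at an edgeR adjusted p under 0.05 with a fold change of at least 1.5, 72 of them lower in cKO (0.462%) and 9 higher (0.0578%). The 72 lower genes had log2 fold changes from -8.28 to -0.64, with a median of -1.65, while the median over all autosomal genes was 0.01. Adjusted p-values ran from 0.0165 to 0.0481, close to the threshold. The groups did not overlap in any of the 81. Over all autosomal genes, every cKO library was above in 7.75% and below in 6.91%. Leaving out 1 of the 6 libraries therefore could not turn the direction of a called gene, and its being kept says nothing further. The count of calls was not kept. It was 3, 1 and 0 without cKO replicate 1, 2 or 3, and each of these 4 calls was higher in cKO. Without gesicle-treated replicate 1, 2 or 3 it was 25, 0 and 58, of which 23, 0 and 52 were lower. The excess of lower genes among the calls thus did not hold with any cKO library or gesicle-treated replicate 2 left out. Fitted on the 6 libraries alone, 128 of 14858 autosomal genes differed, 124 lower in cKO and 4 higher, and 45 of the 81 were among them. At an unadjusted edgeR p under 0.05 with the same fold change, the directions were near balance, with 473 autosomal genes higher in cKO and 487 lower. In the plot of fold change by level, the called genes lie mainly below 0 at every level of expression.

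**Figure D1:**
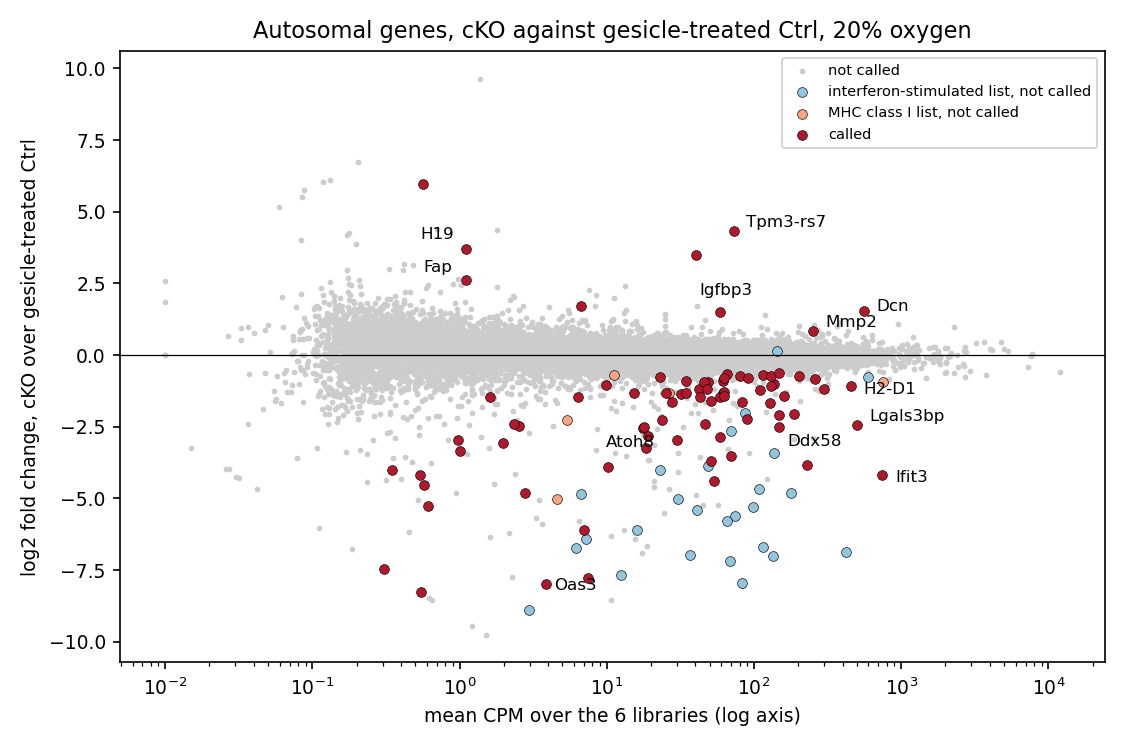
Log2 fold change of cKO over gesicle-treated Ctrl TFs in 20% O2 for each autosomal gene tested (vertical axis) against its mean CPM over the 6 libraries (horizontal axis, log scale), with the 81 called genes in red. Called genes number 72 below 0 and 9 above, and most members of the interferon-stimulated list (blue where not called) lie below -2.

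Promoters of lower genes are shown for the letters of the interferon response element. The element was searched as GAAANNGAAA on both strands (the other strand reads TTTCNNTTTC), in the 250 bases before each gene start of RefSeq (GRCm38.p6). Capitals mark each match. The windows printed are those of *Ifit3* (chr19:34583279-34583528, plus strand), *Gbp2* (chr3:142620413-142620662, plus strand) and *Oas3* (chr5:120777660-120777909, minus strand), which hold a match. The window of *H2-D1* (chr17:35262844-35263093, plus strand), a lower gene, holds no exact match. Only exact matches were counted, so a window without a match can still hold a variant of the element. The *H2-D1* window precedes its RefSeq start but lies inside the gene as GENCODE M21 draws it, which begins at 35262730. GENCODE M21 begins *Gbp2* at 142620602, within the printed window, and the *Gbp2* match lies past that start, inside the gene so drawn.
Ifit3: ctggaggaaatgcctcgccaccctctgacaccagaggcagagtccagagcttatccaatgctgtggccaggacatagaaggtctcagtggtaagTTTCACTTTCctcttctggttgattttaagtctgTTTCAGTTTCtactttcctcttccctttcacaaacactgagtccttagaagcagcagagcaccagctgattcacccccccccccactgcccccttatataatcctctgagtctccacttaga
Gbp2: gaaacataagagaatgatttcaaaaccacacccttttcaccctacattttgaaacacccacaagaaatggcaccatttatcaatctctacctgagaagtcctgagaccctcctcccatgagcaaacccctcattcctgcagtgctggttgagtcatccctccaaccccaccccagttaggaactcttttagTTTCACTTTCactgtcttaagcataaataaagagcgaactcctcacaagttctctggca
Oas3: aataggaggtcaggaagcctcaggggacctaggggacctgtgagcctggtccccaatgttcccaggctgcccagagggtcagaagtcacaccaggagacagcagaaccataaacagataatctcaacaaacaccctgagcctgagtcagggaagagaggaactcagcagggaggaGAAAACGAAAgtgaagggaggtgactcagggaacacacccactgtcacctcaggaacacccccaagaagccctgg
H2-D1: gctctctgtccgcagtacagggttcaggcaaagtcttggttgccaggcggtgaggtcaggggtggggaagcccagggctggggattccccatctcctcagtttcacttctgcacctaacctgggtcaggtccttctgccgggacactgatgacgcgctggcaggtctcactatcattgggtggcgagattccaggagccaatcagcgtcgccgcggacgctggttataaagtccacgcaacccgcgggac
The matches began 156 and 122 bases before the RefSeq start of *Ifit3*, 59 bases before that of *Gbp2* and 75 bases before that of *Oas3*. Of the 72 lower genes, 61 had a promoter window, and 15 of these (24.6%) held the letters. They were held by 936 of all 27025 symbols with a window (3.46%) and by 347 of the 10800 tested autosomal genes with one (3.21%). Among members of the interferon-stimulated list it was 11 of 23 with a window (47.8%), and of the MHC class I list 2 of 12 (16.7%). Only 1 of the 9 higher genes had a window, and it held no match.

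Among the antiviral effectors, *Ifit3* (chr19:34583531-34588731), whose product binds foreign RNA together with its IFIT partners, had the highest mean CPM of the lower genes, a value not corrected for transcript length. It measured 94.2, 80.7 and 57.2 CPM in cKO, 1039, 1753 and 1452 CPM in gesicle-treated and 265, 480.1 and 95.6 CPM in untreated Ctrl TFs. Every cKO library was below every gesicle-treated one, by 18.3-fold in the fit (log2 fold change -4.19 ± 0.82, adjusted p = 0.0365), and untreated Ctrl lay between them, with replicate 3 just above the highest cKO library. *Oas3*, an oligoadenylate synthetase that activates RNase L, was counted 3 times over the cKO libraries and 1076 times over the gesicle-treated ones. The ratio of these counts was 289 (95% counting interval 98.8 to 1410), and the edgeR log2 fold change was -7.98 ± 1.65 (adjusted p = 0.0456). *Gvin1*, an interferon-inducible giant GTPase, was also near the floor in cKO, with 7 counts against 2120 (ratio 244, 95% counting interval 118 to 608). Its edgeR log2 fold change was -7.79 ± 1.52 (adjusted p = 0.0365). The counting intervals cover counting error only. The GTPases *Tgtp1* (log2 fold change -6.09) and *Gbp5* (-4.82), the apolipoprotein L gene *Apol9a* (-4.38) and the ubiquitin ligase *Herc6* (-3.69) were lower as well, with no overlap between the groups. The log2 fold change of *Gbp5* was -4.09 without gesicle-treated replicate 2, and that of *Tgtp1* was -5.12 without the same library, -5.50 without cKO replicate 2 and -8.14 without cKO replicate 3 (adjusted p of 0.124 to 0.152 in these 4 fits). *Gbp2*, a guanylate-binding protein, measured 14.9, 13.4 and 14.3 CPM in cKO and 88.8, 146 and 77.2 CPM in gesicle-treated TFs (log2 fold change -2.87 ± 0.46, adjusted p = 0.0179). Its untreated Ctrl values were 28.5, 38.7 and 15.4 CPM, above every cKO library and below every gesicle-treated one. Counts for *Ifit3*, *Apol9a*, *Tgtp1* and the *Gbp* and *H2* genes are uncertain where reads could be split among near-identical relatives.

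*Ddx58*, which encodes the RNA sensor RIG-I, measured 53.3, 32.5 and 45.9 CPM in cKO and 207, 303 and 247 CPM in gesicle-treated TFs (log2 fold change -2.52 ± 0.50, adjusted p = 0.0401). In untreated Ctrl it was 93.0, 117 and 47.7 CPM, with replicate 3 inside the cKO range. *Ifih1*, which encodes the sensor MDA5, and *Tlr3*, the endosomal sensor of double-stranded RNA, had log2 fold changes of -3.51 and -2.28 (adjusted p = 0.0459 and 0.0365). *Cd274*, which encodes the checkpoint ligand PD-L1, measured 1.36, 1.09 and 1.36 CPM in cKO and 8.57, 41.5 and 7.34 CPM in gesicle-treated TFs (adjusted p = 0.0468). Without gesicle-treated replicate 2, the highest library, its log2 fold change was -2.65 (adjusted p = 0.206), against -3.91 with it. *Lgals3bp*, a secreted glycoprotein, measured 152, 174.5 and 145 CPM in cKO, 714, 876.5 and 940.0 CPM in gesicle-treated TFs and 160.1, 251 and 122 CPM in untreated Ctrl (log2 fold change -2.43 ± 0.39, adjusted p = 0.0179).

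**Figure D2:**
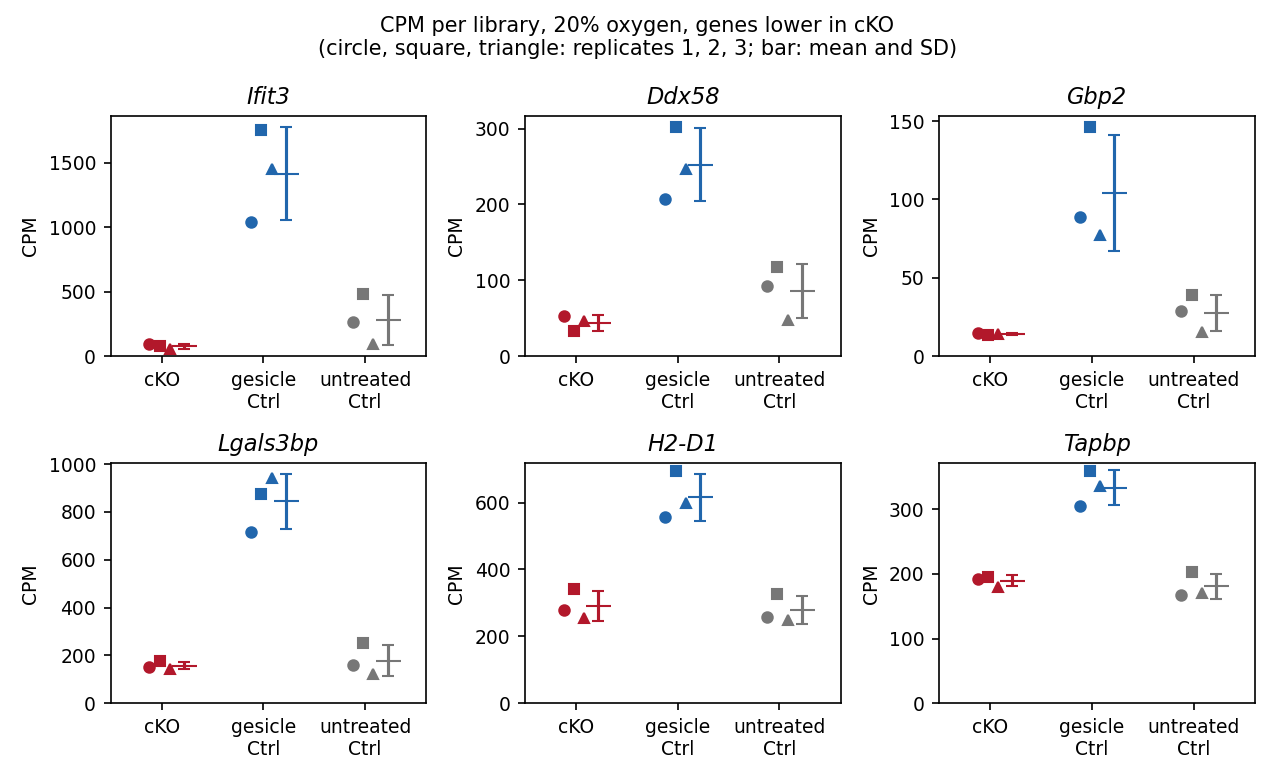
CPM of 6 genes lower in cKO (vertical axes) in each library of cKO, gesicle-treated Ctrl and untreated Ctrl TFs in 20% O2, with mean and SD. In all 6 panels the 3 cKO libraries sit below the 3 gesicle-treated libraries, and untreated Ctrl overlaps cKO in 4 of them, all but *Ifit3* and *Gbp2*.

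Of the 33 members tested in a list of interferon-stimulated genes, 7 passed the test, all lower in cKO, among them *Ifit2*, *Ifit3*, *Oas3*, *Ddx58*, *Ifih1* and *Gbp2*. The median of the list was -5.01, and 32 of 33 members had every cKO library below every gesicle-treated one, against 6.91% of all autosomal genes. A further 15 members had adjusted p-values of at most 0.1, among them the ubiquitin-like modifier *Isg15*, with 1.04, 1.12 and 0.703 CPM in cKO and 85.4, 168 and 158 CPM in gesicle-treated TFs (adjusted p = 0.0903). *Ifit1* measured 9.57, 5.04 and 7.32 CPM in cKO and 644, 1161 and 719 CPM in gesicle-treated TFs but had an SE of 2.08 and an adjusted p of 0.182. The spread behind these tests was estimated over all 18 libraries. In the 6 libraries fitted alone 29 of the 33 members passed, and with the gesicle-treated library of replicate 2 in 1% O2 left out, 20 passed. Without cKO replicate 1, 2 or 3 or gesicle-treated replicate 2 none did, and without gesicle-treated replicate 1 or 3, 2 did. *Ifi27* was the member with overlapping groups, at 129, 198.5 and 123 CPM in cKO and 199, 121 and 88.6 CPM in gesicle-treated TFs.

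MHC class I presentation was lower to a smaller extent. Of 14 members tested, 9 passed and all 9 were lower in cKO (*H2-D1*, *H2-K1*, *H2-Q4*, *H2-T23*, *Tap1*, *Tap2*, *Tapbp*, *Psmb8* and *Erap1*), with a list median of -1.25 and all 14 without overlap between the groups. Without cKO replicate 1, 2 or 3 or gesicle-treated replicate 2, none of the 9 passed, and without gesicle-treated replicate 1 or 3, 5 members did. *H2-D1* (chr17:35262730-35267499), a classical class I heavy chain, measured 280.1, 341 and 254 CPM in cKO and 557, 694.5 and 598 CPM in gesicle-treated TFs, a 2.11-fold difference (log2 fold change -1.08 ± 0.17, adjusted p = 0.0179). Its untreated Ctrl values of 258.5, 327 and 249 CPM overlapped those of cKO. The peptide transporter subunit *Tap2* measured 46.8, 47.6 and 43.0 CPM in cKO, 79.2, 88.0 and 72.0 CPM in gesicle-treated and 48.3, 51.0 and 40.0 CPM in untreated Ctrl TFs (log2 fold change -0.80 ± 0.12, adjusted p = 0.0165). *Tapbp*, the tapasin that bridges transporter and heavy chain, differed by 0.82 ± 0.12 on the log2 scale in the same direction (adjusted p = 0.0165). The light chain *B2m* measured 409.5, 733 and 399.8 CPM in cKO and 887, 1031 and 1033 CPM in gesicle-treated TFs, without passing the test (adjusted p = 0.112). Chromosome 17, which carries the MHC, held 13 of the 72 lower genes and 785 of the 15573 autosomal genes tested. Members named above, among them *H2-D1*, *H2-K1*, *Tap2* and *Tapbp*, are part of the 13.

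Lower genes outside both lists numbered 56, among them *Gvin1*, *Tgtp1*, *Gbp5*, *Herc6* and *Lgals3bp* named above. The lists thus do not hold every interferon-inducible gene that was lower. After *Lgals3bp*, those with the highest mean CPM were *Tor1aip2* (log2 fold change -1.17), which encodes an activator of the torsin ATPases of the endoplasmic reticulum and nuclear envelope, the helicase gene *Ddx24* (-0.74) and the torsin gene *Tor3a* (-2.05). The dNTPase *Samhd1* (-1.45), the NAD-synthesis enzyme *Nampt* (-1.62), the interleukin decoy *Il18bp* (-3.08) and the necroptosis effector *Mlkl* (-0.73) also passed. *Il6*, the only member of 21 cytokine and chemokine genes to pass, was near its detection floor, with 4 counts over the cKO libraries and 90 over the gesicle-treated ones (ratio 18.2, 95% counting interval 6.85 to 68.1). Its edgeR log2 fold change was -4.02 ± 0.82 (adjusted p = 0.0418).

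Against untreated Ctrl, the interferon-stimulated and MHC class I lists gave different values. Comparisons with untreated Ctrl share the cKO or the gesicle-treated libraries with the comparison above and are not independent of it. The interferon-stimulated list had a median log2 fold change of -2.70 for cKO over untreated Ctrl and of 2.41 for gesicle-treated over untreated Ctrl. The MHC class I list had 0.02 and 1.36. With gesicle-treated over untreated Ctrl, 4 autosomal genes passed (0.0257%), namely *H2-D1*, *H2-K1*, *Tap2* and *Tapbp*, and all 4 were higher after gesicles. Libraries of these groups with the same number deviated together (r of 0.346, 0.462 and 0.405), and with the number as a block of these 6 libraries the same 4 genes passed. Fitted alone, the 6 Ctrl libraries gave 1 gene, or 12 with the block, of which 3 were interferon-stimulated and 6 MHC class I members. With cKO over untreated Ctrl, 82 autosomal genes passed (0.527%) and none was a member of the interferon-stimulated list. Untreated Ctrl libraries differed among themselves, since replicate 3 was below replicates 1 and 2 in 33 of 33 interferon-stimulated members.

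The level of each list, given as the median over its members of log2 CPM centred on the mean of all 18 libraries, is given for each library. The interferon-stimulated list stood at -1.33, -1.92 and -1.89 in the cKO libraries, at 2.69, 3.67 and 2.77 in the gesicle-treated ones and at 0.72, 1.58 and -2.0 in untreated Ctrl. All cKO libraries were thus low and all gesicle-treated libraries high, and untreated Ctrl spanned both sides of 0. In 1% O2 the groups overlapped, with -1.35, 1.08 and -2.01 in cKO and 2.58, -1.76 and 1.54 in gesicle-treated TFs. The 1% O2 gesicle-treated library of replicate 2 was low where its 20% O2 counterpart was the highest of all libraries.

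**Figure D3:**
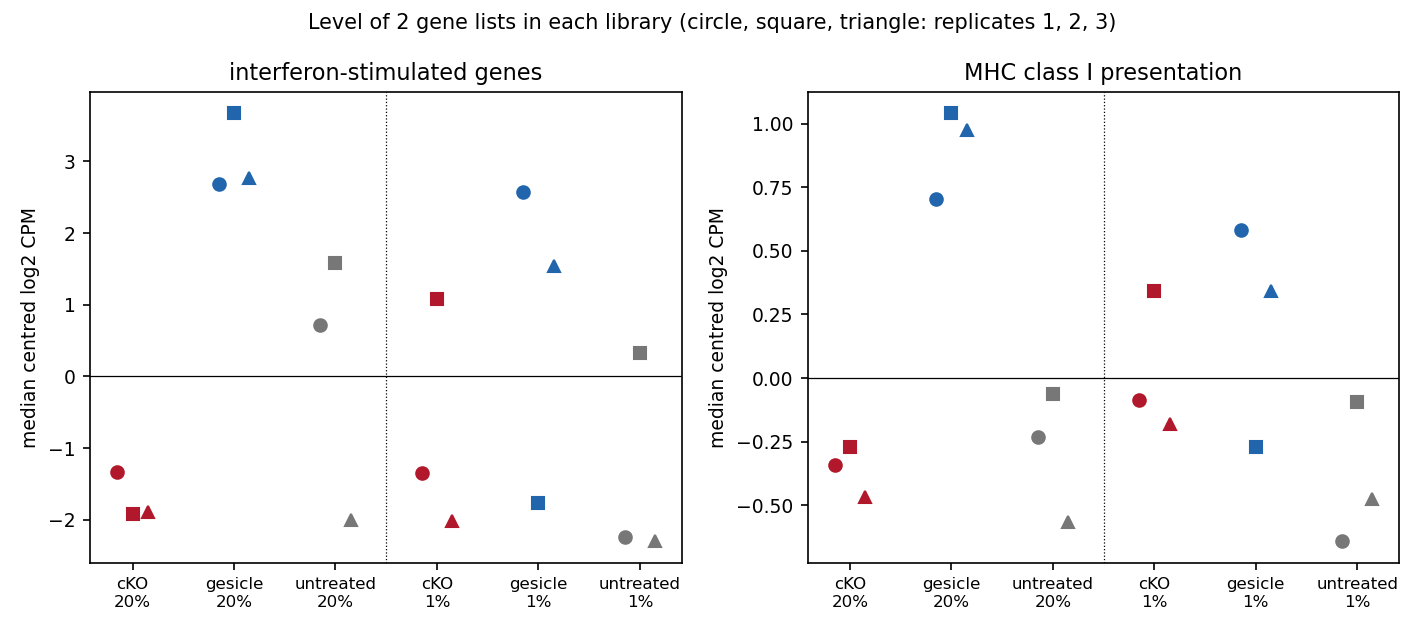
Median centred log2 CPM (vertical axes) of the interferon-stimulated list (left) and the MHC class I list (right) in each of the 18 libraries by group and O2 level (horizontal axes). In 20% O2 the gesicle-treated libraries stand above every cKO and untreated library in both lists, and in 1% O2 the groups overlap.

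The comparison in 1% O2 used other libraries, which by their numbers may come from the same mice. The cKO library of replicate 1 in 1% O2 held 6857558 counts, the lowest total of the 18 libraries. In this comparison 2 autosomal genes passed (0.0128%), *Dcn* and *Mapk12*. Medians were -1.62 for the interferon-stimulated list and -0.28 for the MHC class I list. The difference of the difference between the O2 levels was tested directly, and 0 of 15573 autosomal genes passed in edgeR (0%), with 328 at an unadjusted p under 0.05 (249 with the fold change), 0 in DESeq2 and 1 in limma voom. *Ifit3* had an interaction of -3.35 ± 1.04 on the log2 scale and *H2-D1* of -0.85 ± 0.24, with an adjusted p of 1 for both.

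Genes higher in cKO included 1 member each of the proteoglycan, protease, IGF, sheath fibroblast and imprinted lists. *Dcn* (chr10:97479609-97518143), which encodes decorin, a small leucine-rich proteoglycan on collagen fibrils of tendon, measured 751, 975 and 757.5 CPM in cKO, 299, 195 and 369 CPM in gesicle-treated and 162, 187 and 287 CPM in untreated Ctrl TFs. All cKO libraries were above all others, and the difference to gesicle-treated TFs was 2.88-fold (log2 fold change 1.52 ± 0.29, adjusted p = 0.0365). In 1% O2 *Dcn* measured 429.5, 939 and 828 CPM in cKO and 164, 125 and 181.5 CPM in gesicle-treated TFs (log2 fold change 2.22 ± 0.30, adjusted p = 0.0258). Of 13 small leucine-rich proteoglycans tested, *Dcn* alone passed, and 11 had fold changes above 0 (median 0.55). Lumican (*Lum*) measured 10.6, 8.07 and 18.8 CPM in cKO and 1.51, 3.67 and 2.58 CPM in gesicle-treated TFs (adjusted p = 0.0637).

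*Mmp2* (chr8:92827291-92853420), the gelatinase A that cleaves denatured collagen, measured 355, 256 and 349.9 CPM in cKO, 178, 168 and 192 CPM in gesicle-treated and 160.0, 178 and 142 CPM in untreated Ctrl TFs (log2 fold change over gesicle-treated TFs 0.83 ± 0.14, adjusted p = 0.0231). It was the 1 gene to pass of 22 matrix proteases and inhibitors. *Igfbp3*, which binds insulin-like growth factors, measured 93.5, 49.5 and 119.5 CPM in cKO and 22.5, 34.4 and 35.3 CPM in gesicle-treated TFs (log2 fold change 1.51 ± 0.31, adjusted p = 0.0418). The cKO library nearest the gesicle-treated ones was replicate 2, which carried the high mitochondrial share. Without it the log2 fold change of *Igfbp3* was 1.79, in a fit that called 1 autosomal gene in all. *Igfbp3* lost its call in 9 of 22 alternatives. *Clec3b*, which encodes the plasminogen-binding protein tetranectin, was higher by 1.72 ± 0.36 (adjusted p = 0.0468), or by 1.20 without cKO replicate 2 (adjusted p = 0.213).

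*Fap*, a surface serine protease of activated and sheath fibroblasts, was low but separated, at 2.37, 1.12 and 2.20 CPM in cKO and 0.162, 0.226 and 0.513 CPM in gesicle-treated TFs (log2 fold change 2.63 ± 0.52, adjusted p = 0.0377, or 3.26 without gesicle-treated replicate 3). It was the 1 member of 16 progenitor-like and sheath fibroblast markers to pass, and 14 of the 16 had fold changes above 0 (median 0.30). *Pi16* measured 200, 148 and 174 CPM in cKO and 70.8, 46.8 and 78.5 CPM in gesicle-treated TFs (adjusted p = 0.0721), and *Dpp4*, another marker of the list, had an adjusted p of 0.104. *H19* (chr7:142575529-142578143), an imprinted long non-coding RNA of growing tissues, measured 1.04, 1.99 and 3.15 CPM in cKO, 0.116, 0.136 and 0.217 CPM in gesicle-treated and 0.0804, 0.0886 and 0.213 CPM in untreated Ctrl TFs. The groups were 12.9-fold apart (log2 fold change 3.69 ± 0.60, adjusted p = 0.0179), and *H19* was the 1 of 18 imprinted growth genes to pass.

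**Figure D4:**
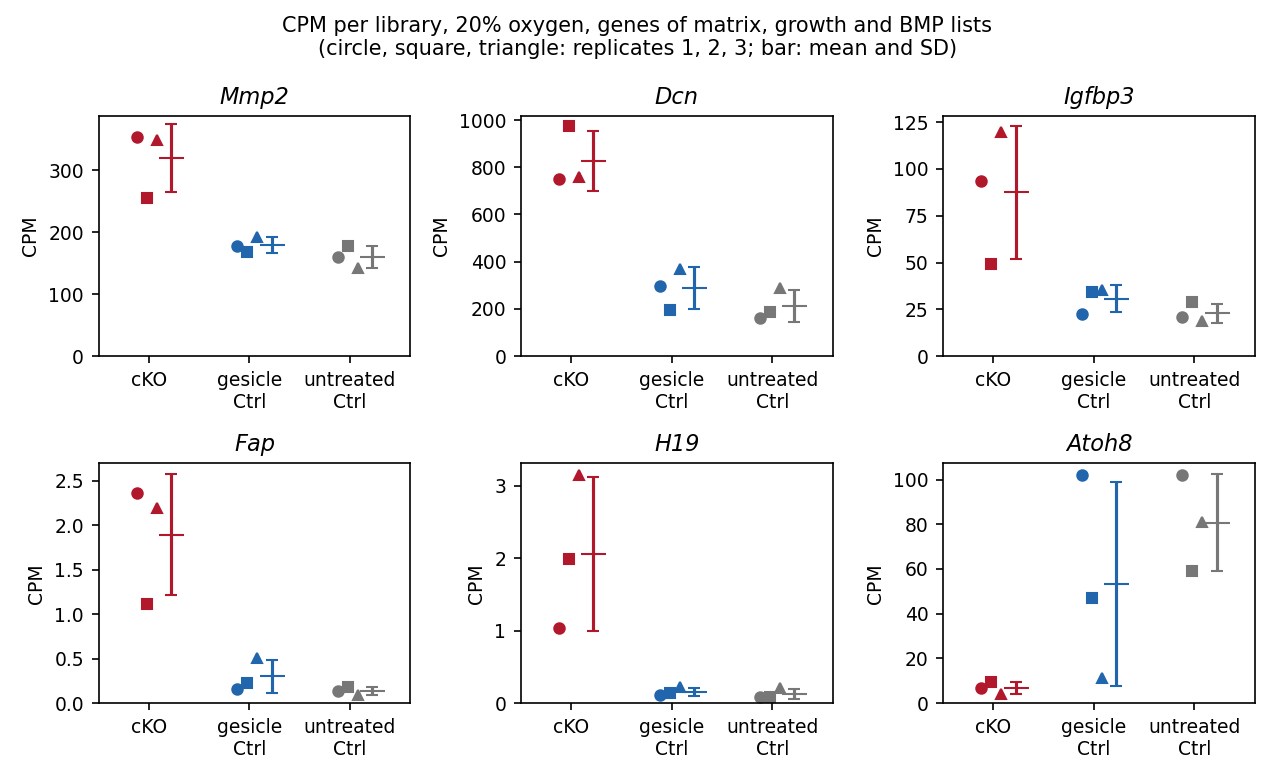
CPM (vertical axes) of *Mmp2*, *Dcn*, *Igfbp3*, *Fap*, *H19* and *Atoh8* in each library of cKO, gesicle-treated and untreated Ctrl TFs in 20% O2, with mean and SD. The first 5 genes are above all gesicle-treated and untreated libraries in every cKO library, and *Atoh8* is below them, with gesicle-treated replicate 3 at 11.3 CPM close to the highest cKO library at 9.45 CPM.

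The remaining higher genes were copies of other genes or low. *Tpm3-rs7*, a processed copy of the tropomyosin gene *Tpm3*, measured 8.25, 218 and 190.4 CPM in cKO and 6.45 to 7.35 CPM in gesicle-treated TFs (adjusted p = 0.0399). *Capza1-ps1*, a processed pseudogene of the actin-capping gene *Capza1*, measured 11.0, 95.0 and 117 CPM in cKO and 6.10 to 6.79 CPM in gesicle-treated TFs (adjusted p = 0.0433). Both were high in cKO replicates 2 and 3 alone, and their counts are uncertain because reads can be shared with the parent genes. The cKO libraries of replicates 2 and 3 were the high ones in 1% O2 too. Replicates 1, 2 and 3 there measured 16.5, 145 and 152 CPM for *Tpm3-rs7* and 12.4, 109.5 and 118 CPM for *Capza1-ps1*. The cause was not tested. The histone gene *Hist1h2al* was higher by 5.97 ± 1.24 (adjusted p = 0.0456) at a mean of 0.562 CPM over the 6 libraries.

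Lower genes outside the interferon-stimulated and MHC class I lists included *Atoh8*, a transcription factor induced by BMP signals through SMAD proteins. It measured 6.78, 9.45 and 4.10 CPM in cKO, 102, 47.0 and 11.3 CPM in gesicle-treated and 102, 59.0 and 80.9 CPM in untreated Ctrl TFs (log2 fold change over gesicle-treated TFs -2.98 ± 0.57, adjusted p = 0.0365). Without gesicle-treated replicate 1, the highest of its group, the log2 fold change was -2.11 (adjusted p = 0.0933). Of 22 BMP-SMAD targets and antagonists it alone passed, 16 had fold changes below 0, and the list median was -0.58. The inhibitory SMAD gene *Smad6* measured 21.2, 28.5 and 18.9 CPM in cKO and 116, 62.4 and 34.5 CPM in gesicle-treated TFs (adjusted p = 0.07). The ligand *Bmp4* measured 5.2, 2.24 and 4.99 CPM in cKO and 0.603, 1.40 and 1.72 CPM in gesicle-treated TFs (adjusted p = 0.387).

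*Lmod1*, an actin nucleator of smooth muscle, was lower in cKO, the 1 member of 20 contractile and SRF/YAP target genes to pass, of which 18 had fold changes below 0 (median -0.31). It measured 6.53, 5.81 and 7.12 CPM in cKO, 13.2, 11.1 and 15.6 CPM in gesicle-treated and 21.1, 12.2 and 22.1 CPM in untreated Ctrl TFs (adjusted p = 0.0418). Of 7 mural cell markers 0 passed and 5 had fold changes below 0 (median -0.35). Their summed level, mostly *Cspg4* and *Myh11*, was 38.6 to 58.2 CPM in cKO and 61.3 to 139 CPM in gesicle-treated TFs, with no marker at 0, and their part in the result was not tested. Fewer cells of a type and less RNA per cell cannot be told apart in these libraries. *Adra2a* (-2.47), *Peli2* (-0.93), *Gnb4* (-0.89), *Map2k1* (-0.72) and *Eml1* (-0.69) were also lower in cKO, and each was named after its value was seen.

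Hypoxia genes gave no call in 20% O2. None of 9 HIF subunits and oxygen sensors, 30 hypoxia response genes or 17 glycolytic genes passed, with medians of -0.14, 0.04 and 0.13. *Epas1*, which encodes HIF-2alpha, had a log2 fold change of -0.21 ± 0.39, its partner *Arnt* of -0.14 ± 0.22, the lipid droplet gene *Hilpda* of 0.06 ± 0.18 and the enolase *Eno1* of -0.09 ± 0.14. The endoplasmic reticulum caspase *Casp12* measured 69.7, 62.2 and 65.8 CPM in cKO, 48.5, 58.2 and 66.0 CPM in gesicle-treated and 29.2, 37.4 and 35.5 CPM in untreated Ctrl TFs. Its cKO and gesicle-treated groups overlapped (log2 fold change 0.19 ± 0.18, adjusted p = 0.694), whereas cKO over untreated Ctrl was 0.95 (adjusted p = 0.0334). The anti-apoptotic *Bcl2* (0.53 ± 0.23, adjusted p = 0.423), the matricellular gene *Ccn3* (0.77 ± 0.31, adjusted p = 0.376) and the iron exporter *Slc40a1* (0.83 ± 0.32, adjusted p = 0.364) did not pass. Every cKO library was above every gesicle-treated one for *Bcl2* and *Slc40a1*, as for 7.75% of all autosomal genes tested. *Scx* had a log2 fold change of 0.22 ± 0.41.

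Collagen genes did not pass either. The median was -0.39 over 11 fibrillar collagens, -0.33 over 17 other collagens and -0.28 over 16 genes of collagen crosslinking and hydroxylation. *Col1a1* measured 3394, 1436 and 3774 CPM in cKO and 3961, 4548 and 5458 CPM in gesicle-treated TFs (adjusted p = 0.595), with cKO replicate 2 the lowest. The prolyl hydroxylase gene *P3h2* (log2 fold change -0.72 ± 0.18, adjusted p = 0.0874) and the lysyl oxidase gene *Loxl3* (-0.66 ± 0.18, adjusted p = 0.118) had the smallest p-values of the crosslinking list. Just outside the threshold were also the ribonucleotide reductase subunit *Rrm2*, with a log2 fold change of -1.19 ± 0.26 (adjusted p = 0.051), and the semaphorin receptor *Plxnc1*, with -2.43 ± 0.53 (adjusted p = 0.0529). In 20 of the 30 pathway lists no member passed, and the medians of those lists lay between -0.39 and 0.39, as the plot of list medians shows.

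**Figure D5:**
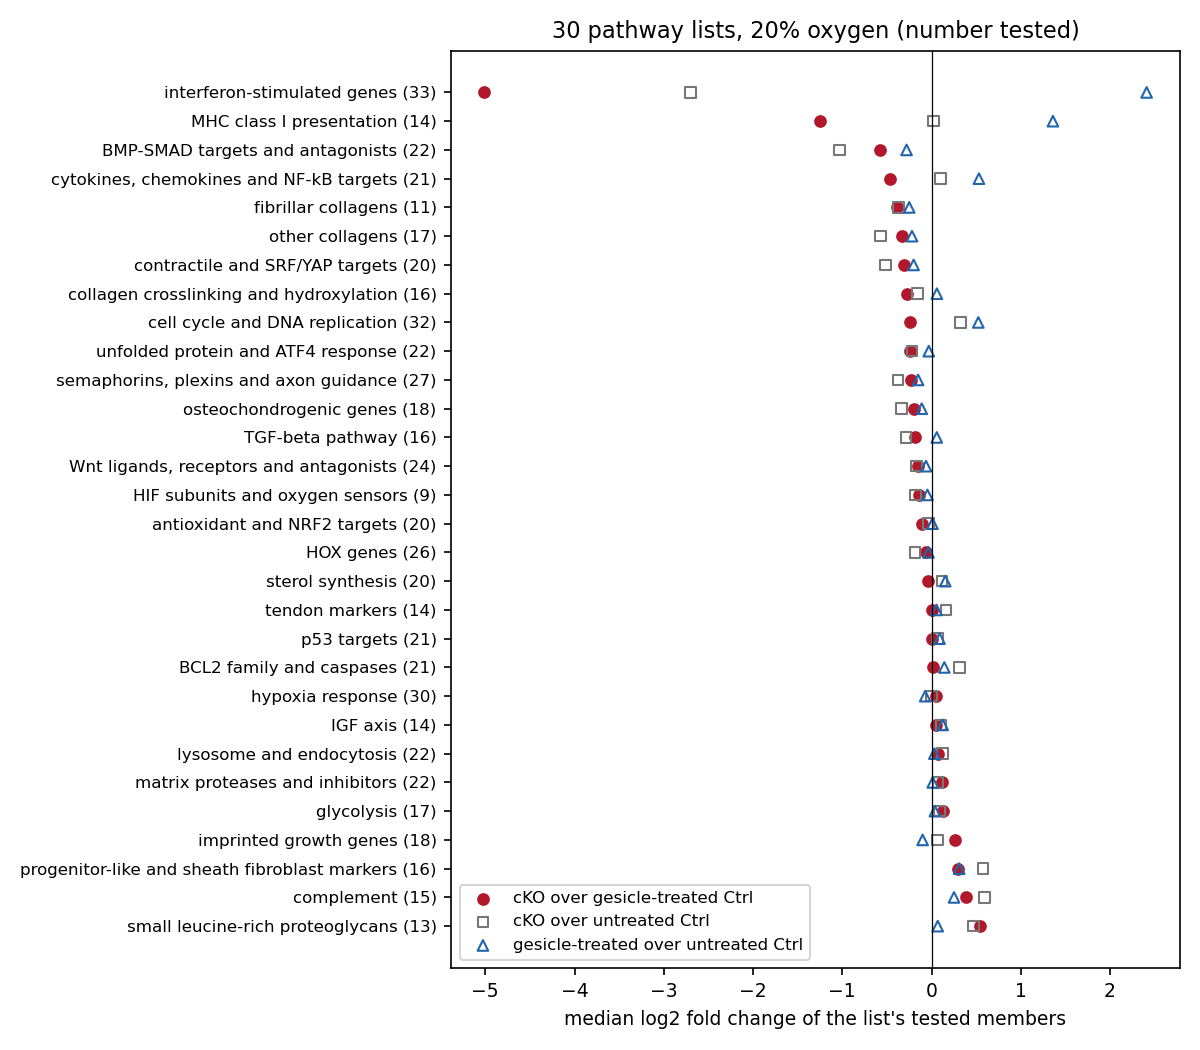
Median log2 fold change over the tested members (horizontal axis) of 30 pathway lists (vertical axis, with the number tested) for cKO over gesicle-treated Ctrl, cKO over untreated Ctrl and gesicle-treated over untreated Ctrl TFs in 20% O2. The interferon-stimulated list (-5.01) and the MHC class I list (-1.25) lie farthest below 0 for cKO over gesicle-treated TFs, and small leucine-rich proteoglycans (0.55) farthest above.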

How the data were processed

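Poly-A RNA of 18 libraries of mouse tail TFs was sequenced as 151 bp read pairs. The authors trimmed the reads with cutadapt, aligned them with STAR (GRCm38) and ran RSEM 1.3.3, and the deposited expected counts are whole numbers without normalization (55487 genes and 4 transgene rows). Samples were grouped by title. The labels give 10% serum and the methods 1%. Nothing in the labels says whether replicates of a group were separate animals, although the methods give 3 mice per group, and p-values measure the spread between these libraries.

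All 18 libraries were fitted in edgeR 4.0.16 (filterByExpr, TMM, a coefficient for each group, quasi-likelihood F test) over 16174 genes, with Benjamini-Hochberg adjustment over all of them. CPM values use TMM-scaled library totals. Calls needed an adjusted p below 0.05 together with at least a 1.5-fold change. SE is the log2 fold change over the square root of F. DESeq2 1.42.0 (the authors' tool) and limma 3.58.1 were alternatives, as were other filters, scalings and fits and each library left out. Positions came from GENCODE M21 (16161 of the tested genes matched). Replicate numbers come from the titles and were read as pairs only between gesicle-treated and untreated Ctrl, where same-numbered libraries deviated together. Fits were run on simulated counts with known folds, the same dispersion for every gene and independent libraries. Real genes differ in their spread, so that run does not test the calls made here.

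Members, the 30 pathway and 9 marker lists and the tests were chosen with earlier results of these data known, so lists carry no test and are given by counts and medians. Named by rule were the genes the study names for these cells, up to 10 called genes at each end of the fold changes (mean of at least 1 CPM, no overlap), the 10 called genes with the highest level, and in each list up to 5 called members or, with none, the 3 smallest p-values. Any other gene named was chosen after its values were seen, and some genes the rule covers are given only in list counts and medians or are not reported here. R 4.3.3 and Python 3.11.15 were used.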

Additional observations from a re-analysis of the deposited data

Results flagged for a closer look

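Signal was also found in transgene rows, which enter no comparison of genes. The cre row held 10 counts over the 3 cKO libraries in 20% O2 and the egfp row 8, and both held 0 in the gesicle-treated and untreated Ctrl libraries. The tdtomato row held 3 counts over the 3 gesicle-treated libraries in 20% O2 (8 over the 6 gesicle-treated libraries at both O2 levels) and 0 in every cKO and untreated library. The 3 tdtomato counts in 20% O2 are at the floor of 3 counts. Gesicles are given as a Cre delivery in the labels, and what other sequences they carried is not given in the sources used here.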

How the results depend on the processing

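Each of the 81 called genes kept its direction under every alternative run in which it was tested. With 1 of the 6 libraries left out this was fixed in advance, since the groups did not overlap in any of the 81. The CPM filter, thinned counts, the 6 libraries alone and the 9 libraries in 20% O2 tested 75, 72, 80 and 80 of them. Counts of called genes moved more. Against 81 (9 higher, 72 lower in cKO), DESeq2 gave 323 (69 and 254), no low-count filter 234 (26 and 208), the 6 libraries alone 128 (4 and 124), the 9 libraries in 20% O2 113 (4 and 109), voom with quality weights 378 (116 and 262), GC and length offsets 147 (24 and 123), unadjusted p 960 (473 and 487), and a test against a fold change of 1.5 gave 0 (0 and 0). These runs did not cover the same number of autosomal genes. DESeq2 and the fit without a filter covered 28480, the 6 libraries 14858 and the 9 libraries 15103, against 15573 in the main fit. With *Xist* as covariate 14 were higher. Leaving out 1 library gave 0 to 151 in all, 0 to 18 higher and 0 to 140 lower, the upper ends without 1 library in 1% O2, alternatives chosen after the data were seen.

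Members called, against 7 interferon-stimulated and 9 MHC class I genes, were 29 and 13 in DESeq2, 29 and 13 without the filter, 29 and 9 in the 6 libraries, 25 and 10 in the 9 libraries, 32 and 14 at unadjusted p, 0 and 0 against a fold change of 1.5, 4 and 8 with *Xist*, 16 and 14 in voom and 11 and 13 with offsets. With 1 library left out they were 0 to 20 and 0 to 13. The list medians stayed between -5.30 and -4.66 and between -1.35 and -1.16. The difference between O2 levels called 249 genes at unadjusted p, 1 in voom and 0 with any library left out.

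The cKO and gesicle-treated libraries with the same number did not deviate together (r of -0.44, -0.15 and -0.08), so the numbers were not read as pairs in that comparison. Between gesicle-treated and untreated Ctrl they did, and there the replicate block, added after the data were seen, gave 4 genes as without it, the 6 Ctrl libraries fitted alone 1, and alone with the block 12. A replicate block gave 119 genes (26 higher, 93 lower) and 11 interferon-stimulated members. With the block, DESeq2 gave 381 of 28480 autosomal genes (98 and 283), 28 such members and 1 gene for the difference between O2 levels. The offsets with the block gave 217 (49 and 168) and 20 such members.

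Fold changes near 0 turned sign with 1 library left out, between -0.064 and 0.208 for *Hif1a*, -0.495 and 0.064 for *Epas1*, -0.385 and 0.121 for *Arnt*, -0.074 and 0.481 for *Scx*, -0.212 and 0.0088 for *Eno1* and -0.147 and 0.178 for *Hilpda*, which was also -0.011 in voom, -0.221 with offsets and -0.216 with offsets and the block. None passed the threshold. The cause was not tested for any of these. Depth limits genes under the floor of 3 counts, and 3 libraries a group limit the rest.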
